A study of Mus musculus with 3 samples.

Results

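Group 2 innate lymphoid cells (ILC2) of the stomach muscle were divided by whether they held RNA of the type 2 cytokine genes Il5, Il13 and Csf2. The sides were chosen by measured values: an ILC2 was called cytokine-expressing with 3 or more unique molecular identifiers (UMIs, each a counted RNA molecule) summed over Il5, Il13 and Csf2, and cytokine-silent with 0. A barcode was taken as an ILC2 with at least 2000 UMIs, at most 15% mitochondrial UMIs, at least 1 UMI of Gata3 and of Il7r, and at least 4 UMIs summed over Gata3, Il7r, Klrg1, Rora and Il1rl1. Upper limits of 5 UMIs of C1qa, C1qb and C1qc, 1 UMI of Cd3d, Cd3e and Cd3g, and 3 UMIs of Cpa3 kept out macrophages, T cells and mast cells. Of 5735 barcodes, 339 were ILC2, of which 146 were cytokine-expressing, 121 were cytokine-silent and 72 held 1 or 2 cytokine UMIs and belonged to neither side. The libraries were 3 droplet libraries of CD45+ leukocytes from the gastric muscle layer of female C57bl/6 mice, all in the group named NonDiabetic in the labels. The labels give no age, genotype or treatment for these mice, and no other group of animals entered a comparison. Nor do they tell whether each library was a different mouse or pool of mice. The p-values below rest on how the difference between the sides varied over 3 libraries, so that spread may be technical.

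ILC2 are tissue-resident lymphocytes without a rearranged antigen receptor, and GATA3 is the transcription factor that sets their identity. They respond to alarm cytokines such as IL-33, whose receptor chain Il1rl1 encodes, and to neuropeptides and lipid mediators, through NF-kB, calcium and NFAT, and cyclic AMP signalling. Their products IL-5, IL-13 and GM-CSF (encoded by Csf2) sustain eosinophils, act on smooth muscle, epithelium and macrophages, and support myeloid cells, respectively. The genes Il4, Il13, Rad50 and Il5 lie next to each other in a type 2 cytokine locus, and Csf2 lies farther along the same chromosome.

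Of 15 ILC2 markers, 5 (Gata3, Il7r, Klrg1, Rora and Il1rl1) served to choose the cells and so say nothing of their identity. None of the other 10 was at 0 on either side, and these summed to 7631 to 9273 CPM in the expressing profiles (CPM, the UMIs of a gene scaled to a profile total of 1000000) and 3721 to 4909 in the silent profiles. Lmo4 (means of 2714 in expressing and 1104 in silent profiles) and Areg (2657 and 646) differed most in CPM. Id2 (799 and 828), Rnf128 (214 and 280) and Il17rb (46.5 and 50.8) had lower means in expressing profiles. Of the 10, 4 were called higher and none lower in the test below. Among the genes of the rule, whose levels are a description only, Gata3 had a mean of 1825 CPM in expressing and 984 in silent cells, and Rora, a nuclear receptor needed for ILC2 development, had 1539 and 516. Il7r, the interleukin 7 receptor, went the other way with 729 and 976, and Il1rl1 had 1450 and 1104. Of the T cell markers, Cd4 and Cd8a were at 0 on both sides and Trac held 5 UMIs in expressing and 1 in silent cells, while the T cell receptor beta constant genes Trbc1 and Trbc2 were present on both. The summed T cell markers were 695 to 786 CPM in expressing and 798 to 945 in silent profiles. The ILC3 markers Il23r, Il22 and Il17a were at 0 on both sides, as were the basophil and mast cell markers Mcpt8 and Ms4a2.

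To show the DNA next to the genes the comparison turns on, the 250 bases before the annotated start of the 3 cytokine genes and of Il4, Calca and Ccl1, genes with large differences below, were taken from RefSeq (build GRCm38.p6) and are written 5′ to 3′ on the gene's strand. The RefSeq and GENCODE starts are the same for Il5, Il13 and Calca. They differ by 4 bases for Il4 and by 232 for Csf2, whose RefSeq start lies farther upstream, and the GENCODE span of Ccl1 begins 125878 bases before its RefSeq start, so distances hold for the RefSeq start alone. Capitals mark exact matches on either strand to 4 short motifs named after factor families of ILC2 activation. The NFAT-type word searched was TGGAAA. The word for AP-1 factors was TGANTCA, with N for any base. The GATA-type word was AGATAA. The word for cyclic AMP response factors, called CRE-type here, was TGACGTCA. No pair of matches overlapped.
Il5, chr11:53720544-53720793, plus strand: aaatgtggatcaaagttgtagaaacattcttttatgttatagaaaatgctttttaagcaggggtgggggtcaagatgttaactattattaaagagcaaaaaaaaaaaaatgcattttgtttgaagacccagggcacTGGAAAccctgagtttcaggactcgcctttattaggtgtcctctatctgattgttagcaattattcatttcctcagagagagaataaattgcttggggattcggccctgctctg
Il13, chr11:53634703-53634952, minus strand: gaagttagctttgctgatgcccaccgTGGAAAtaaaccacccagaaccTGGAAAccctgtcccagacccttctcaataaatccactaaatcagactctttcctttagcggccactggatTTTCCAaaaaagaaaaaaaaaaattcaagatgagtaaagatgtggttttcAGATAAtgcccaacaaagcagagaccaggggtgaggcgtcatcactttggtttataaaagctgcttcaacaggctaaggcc
Csf2, chr11:54249900-54250149, minus strand: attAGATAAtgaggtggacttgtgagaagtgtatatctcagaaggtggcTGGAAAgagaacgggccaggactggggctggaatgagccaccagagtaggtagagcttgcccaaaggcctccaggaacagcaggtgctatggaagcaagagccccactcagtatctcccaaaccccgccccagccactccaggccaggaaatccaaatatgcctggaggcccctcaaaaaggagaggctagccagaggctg
Il4, chr11:53618666-53618915, minus strand: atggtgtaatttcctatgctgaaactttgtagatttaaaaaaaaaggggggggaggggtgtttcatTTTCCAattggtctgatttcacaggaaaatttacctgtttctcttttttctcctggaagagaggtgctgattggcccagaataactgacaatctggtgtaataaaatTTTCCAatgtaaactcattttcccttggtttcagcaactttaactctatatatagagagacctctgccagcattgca
Calca, chr7:114636358-114636607, minus strand: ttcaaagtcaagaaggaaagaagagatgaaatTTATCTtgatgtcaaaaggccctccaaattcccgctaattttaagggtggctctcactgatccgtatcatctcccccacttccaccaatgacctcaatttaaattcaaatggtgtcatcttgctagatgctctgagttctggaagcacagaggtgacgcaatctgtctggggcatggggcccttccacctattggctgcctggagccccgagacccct
Ccl1, chr11:82179813-82180062, minus strand: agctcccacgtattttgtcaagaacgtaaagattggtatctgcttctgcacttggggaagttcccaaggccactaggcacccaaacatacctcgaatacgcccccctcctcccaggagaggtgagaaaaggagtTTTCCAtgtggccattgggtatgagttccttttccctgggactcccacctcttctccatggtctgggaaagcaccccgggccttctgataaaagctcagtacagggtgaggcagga

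The NFAT-type word occurred 3 times before Il13, where its matches began 224, 202 and 131 bases before the start, 2 times before Il4, at 184 and 77 bases, and 1 time before Il5, Csf2 and Ccl1. Il13, Csf2 and Calca each held 1 GATA-type word, at 81, 247 and 218 bases. The AP-1-type and CRE-type words were absent from these 6 windows, which says only that these letters are not there. Over all 27025 RefSeq promoter windows of this length, 18.7% held the NFAT-type, 6.85% the AP-1-type, 10.2% the GATA-type and 1.60% the CRE-type word. Among the genes tested below, 2848 of 3577 had a window, and 14.0% of these held the NFAT-type word, while it was in 22 of the 109 windows found for the 141 genes higher in expressing cells (20.2%). The AP-1-type word was in 5.50% of those 109 and 3.97% of the tested, the GATA-type word in 8.26% and 5.55%, and the CRE-type word in 1.83% and 3.55%. These are descriptions of letters, without a test, and a match is not a binding site.

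Expressing cells made up 44.6% of the ILC2 in replicate 1 (exact Clopper-Pearson 95% interval 34.2 to 55.3), 53.8% in replicate 2 (44.9 to 62.6) and 29.9% in replicate 3 (21.8 to 39.1), a mean of 42.8% ± 12.1 (SD, n = 3). Replicate 3 was thus the lowest, with 35 expressing and 57 silent cells against 41 and 26 in replicate 1 and 70 and 38 in replicate 2. Intervals cover counting error only. When every ILC2 was thinned to 2000 UMIs the mean share was 30.5%, so the share depends on depth. The sum per cell ran far above the threshold, with medians of 17, 30 and 11 cytokine UMIs in the expressing cells of replicates 1, 2 and 3 and highest values of 416, 190 and 125. Just inside the threshold, at 3 UMIs, were 3, 5 and 4 cells, and just outside it, at 2 UMIs, were 11, 9 and 7.

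**Figure D1:**
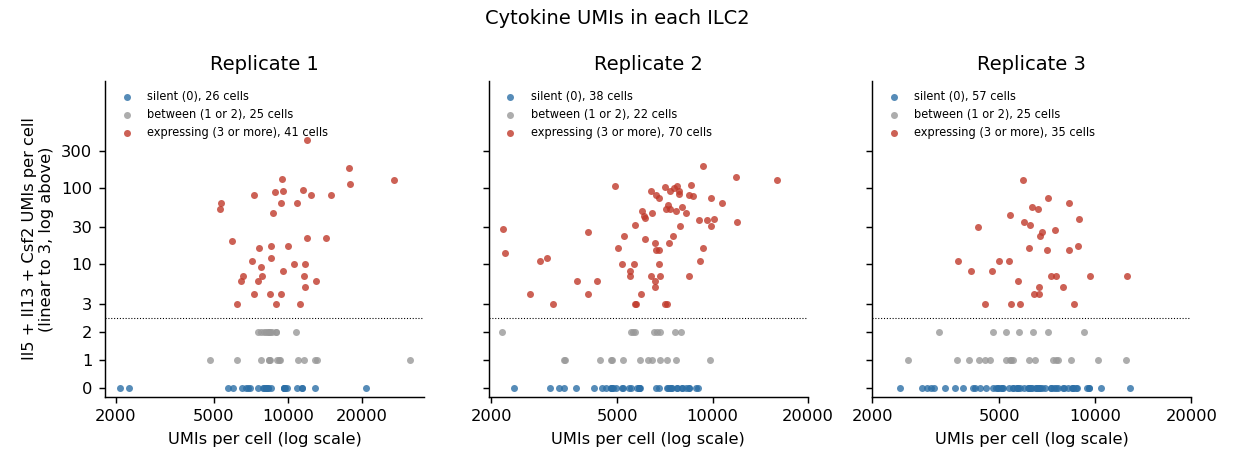
Each point is an ILC2, with its UMIs on a log x axis and its summed Il5, Il13 and Csf2 UMIs on a y axis that is linear up to 3 and logarithmic above, in 1 panel per library. Blue cells are silent, grey cells hold 1 or 2 UMIs and red cells are expressing; the red cells reach 416 UMIs in replicate 1, and cells of all 3 kinds overlap in depth.

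The cytokine genes were not detected together in every expressing cell. Csf2 had a UMI in 124 of 146 expressing cells (83.7% ± 5.89, SD over 3 libraries), Il5 in 86 (58.9% ± 1.94) and Il13 in 85 (58.3% ± 4.67). All 3 genes were found in 45 cells, 2 of them in 59 and 1 in 42. Cells with Csf2 alone numbered 36, against 5 with Il5 alone and 1 with Il13 alone. By library, Il5 stood at 1795, 2236 and 919 CPM in the expressing profiles, Il13 at 1155, 1180 and 620, and Csf2 at 1824, 2556 and 1880. All 3 genes thus had their highest level in replicate 2, and Il5 and Il13 their lowest in replicate 3. In macrophages of the same libraries (over 5 C1q UMIs, 201, 652 and 691 cells with medians of 8542, 9577 and 8556 UMIs), which should lack these cytokines, 8.46%, 4.14% and 1.16% held at least 1 cytokine UMI, and 0, 6 and 2 cells held 3 or more. The 72 ILC2 with 1 or 2 cytokine UMIs were kept out of both sides.

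Depth was similar but not equal on the sides. Without the cytokine UMIs, medians were 9320, 6768 and 6556 UMIs per expressing cell and 8237, 5850 and 6185 per silent cell, higher in expressing cells in 3 of 3 libraries, with a mean log2 ratio of 0.16 ± 0.07 (SD, n = 3). The exact two-sided sign-flip test gave p = 0.25, the smallest value that 3 libraries allow. Median genes per cell were 2571, 1760.5 and 1839 against 2566.5, 1746 and 1830. The mitochondrial share was 4.12%, 2.52% and 3.34% against 4.30%, 2.88% and 2.84%. A silent cell of replicate 1 held 1012 UMIs of the myeloid genes Lyz2, Cd74, H2-Aa, H2-Ab1 and H2-Eb1, while no other silent cell exceeded 13 and no expressing cell exceeded 12. Between libraries, 34 barcode sequences recurred, of which 1 was an ILC2.

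Counts were summed per library and side into 6 profiles of 224412 to 484749 UMIs and tested with the library as a block (edgeR's quasi-likelihood test, Benjamini-Hochberg adjustment over 3577 genes, called at an adjusted p under 0.05). The genes of the rule and mitochondrial genes were left out of the test. Against silent cells, 141 genes were higher in expressing cells (3.94% of those tested) and 11 were lower (0.308%), or 4.25% in either direction. Counts of called members in each gene list below are to be read against these shares. The median log2 fold change over all genes tested was -0.04, and 1615 of 3577 were above 0. A summed profile does not separate more cells with an RNA from more RNA per cell, so shares of cells are given below for the genes with the largest differences. Left out in turn, the libraries changed these counts: 205 genes were higher and 31 lower without replicate 1, 85 and 5 without replicate 2, and 82 and 17 without replicate 3. Without the silent cell rich in myeloid RNA the counts were 222 and 31, and without the library block 65 and 4, while all 152 called genes kept their direction in each of these fits.

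**Figure D2:**
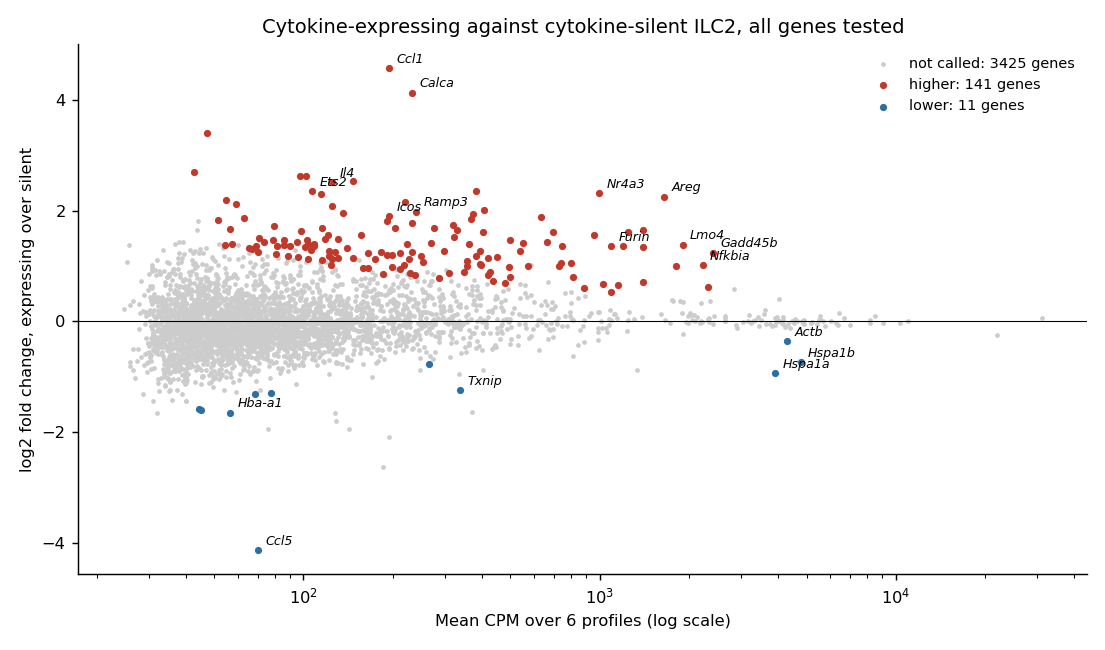
Each of the 3577 genes tested is placed by its mean level over the 6 profiles (CPM, log x axis) and its log2 fold change, expressing over silent. The 141 genes called higher are red and the 11 called lower are blue, and Ccl1 and Calca on the high side and Ccl5 on the low side lie farthest from 0.

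Some genes for secreted products other than the cytokines of the rule were higher in expressing cells, and most were not called. Of 29 listed cytokines and growth factors, 15 were tested, 5 were higher (Calca, Il4, Areg, Il2 and Furin) and none lower, with a list median of 0.67 on the log2 scale against -0.04 for all genes tested. Calca, which encodes calcitonin and the neuropeptide calcitonin gene-related peptide, had 504, 293 and 517 CPM in the expressing cells of replicates 1, 2 and 3 and 44.6, 30.7 and 8.41 in the silent cells. The sides did not overlap, and the log2 fold change was 4.13 ± 0.39 (SE, adjusted p = 0.0007). A single cell held 22.6% of the 474 expressing Calca UMIs, and a single cell held 45% of the 20 silent ones. Areg encodes amphiregulin, an epidermal growth factor receptor ligand with a part in tissue repair, and stood at 3194, 2837 and 1940 CPM in the expressing cells of replicates 1, 2 and 3 and 143, 985 and 811 in the silent cells. The low silent value of replicate 1 stands apart, and the log2 fold change of 2.25 ± 0.46 (SE, adjusted p = 0.0247) was 1.44 without that library. The call for Areg was lost with DESeq2 (adjusted p = 0.0897), without the block, and when cells were paired on depth (log2 fold change 1.88, adjusted p = 0.0941).

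Il4 encodes the type 2 cytokine interleukin 4 and was found at 210.1, 153 and 273 CPM in expressing cells and 17.8, 39.4 and 56.1 in silent cells. Every expressing profile was above every silent one, with a log2 fold change of 2.51 ± 0.30 (SE, adjusted p = 0.00153). Furin, a protease that cleaves proproteins and no cytokine itself, had 1599, 1665 and 1393 CPM in expressing cells and 517, 806 and 581 in silent cells, a log2 fold change of 1.35 ± 0.14 (SE, adjusted p = 0.000708). Il2, the lymphocyte growth factor, had 88.3, 266 and 55.5 CPM in expressing cells and 26.7, 109 and 22.4 in silent cells. The sides overlapped for Il2 (log2 fold change 1.42 ± 0.27, SE, adjusted p = 0.0166), a single cell held 57.5% of its expressing UMIs, and the call was lost in 10 of 20 alternatives. No UMI of Il9 was counted on either side, and Il3, the neighbour of Csf2, had 1 UMI in expressing and none in silent cells, so neither was tested.

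Other secreted factors were not called. Ltb, which encodes lymphotoxin beta, stood at 284, 357 and 325 CPM in expressing cells and 401, 464 and 569 in silent cells, with no overlap between the sides and a log2 fold change of -0.52 ± 0.17 (SE, adjusted p = 0.134). Tnf had a log2 fold change of -0.63 ± 0.47 (SE, adjusted p = 0.54) and Lif, a cytokine of the interleukin 6 family, 0.94. For Il6 the value was -0.53 ± 0.49 (SE), with 62.2% of the silent UMIs in a single cell, and the direction turned to 0.71 without replicate 1.

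Chemokine genes differed in both directions. Of 15 listed, 7 were tested, 3 were higher and 1 was lower, with a list median of -0.07. Ccl1, the ligand of the receptor CCR8, had 301, 389.9 and 423 CPM in expressing cells and 0, 43.8 and 8.41 in silent cells. Its silent counts were 0, 10 and 3 UMIs against 126, 189 and 99, and the log2 fold change was 4.57 ± 0.48 (SE, adjusted p = 0.0008). Cxcl2, a neutrophil attractant, had 2008, 1683 and 1735 CPM in expressing cells and 998, 810.2 and 249.6 in silent cells, a log2 fold change of 1.61 ± 0.30 (SE, adjusted p = 0.0162). Macrophages hold Cxcl2 too, with a UMI in 63.3% of them at 2000 UMIs per cell against 42.3% of expressing and 24.0% of silent cells, and the call was lost when cells were paired on depth (1.04, adjusted p = 0.163). Cxcl10, an interferon-induced chemokine, had 150.4, 291 and 81.2 CPM in expressing cells and 44.6, 39.4 and 5.61 in silent cells, a log2 fold change of 2.62 ± 0.35 (SE, adjusted p = 0.00342), but a single cell held 42.6% of the expressing UMIs and only 19 of 146 expressing cells had any.

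**Figure D3:**
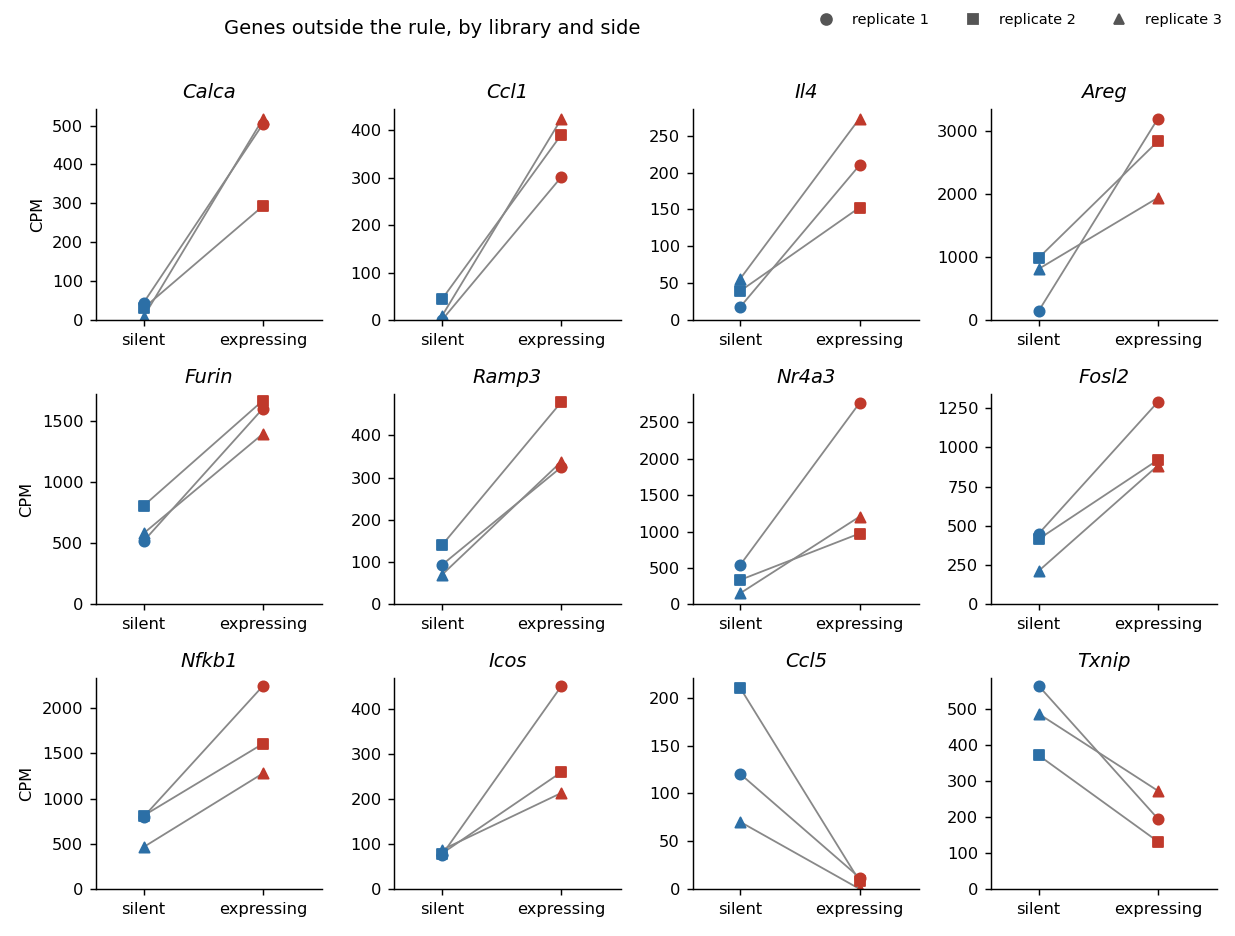
CPM (linear y axes from 0) of 12 genes outside the rule in the silent (blue) and expressing (red) profile of each library, with a line joining the profiles of the same library. For Calca, Ccl1, Il4, Areg, Furin, Ramp3, Nr4a3, Fosl2, Nfkb1 and Icos every red point lies above every blue one, and for Ccl5 and Txnip every red point lies below.

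Cells with any UMI were also more frequent when every cell was thinned to 2000 UMIs. Calca was then found in 18.5% of expressing, 1.46% of silent cells and 0.204% of macrophages (means over 3 libraries), and unthinned in 24.9%, 6.36% and 0.687%. For Ccl1 the thinned shares were 18.2%, 2.63% and 0.0994% (unthinned 26.7%, 4.39% and 0.367%), and for Il4 16.7%, 6.25% and 0.464% (unthinned 39.1%, 17.1% and 1.35%). Unthinned, 39 and 40 of 146 expressing cells held a UMI of Calca and of Ccl1, and since these shares rise with depth, a cell without a UMI is not shown to lack the RNA. Areg was wider, with 56.9% of expressing and 32.3% of silent cells after thinning, and 8.45% of macrophages (unthinned 77.6%, 40.4% and 15.8%).

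The genes around the cytokine genes on chromosome 11 were listed to see whether they moved with them. Of 19 such genes, 8 were tested, 3 were higher (Il4, Rad50 and Hspa4) and none lower, with a list median of 0.51. In the GENCODE annotation of GRCm38, Il4 spans chr11:53602982-53618669, Il13 chr11:53631324-53634702, Rad50 chr11:53649519-53707319 and Il5 chr11:53720794-53725106, with Csf2 at chr11:54247271-54249667. Rad50, a DNA repair gene that holds the control region of the locus in its introns, had 169, 140.3 and 179 CPM in expressing cells and 107, 65.7 and 78.5 in silent cells, and its log2 fold change of 1.02 ± 0.24 (SE, adjusted p = 0.0426) lost its call in 7 of 21 alternatives. Hspa4, a chaperone gene at chr11:53259814-53300457, had 253, 332 and 295 CPM in expressing cells and 152, 158 and 185 in silent cells (log2 fold change 0.87 ± 0.19, SE, adjusted p = 0.0346), a call lost in 10 of 21 alternatives. Irf1, between Il5 and Csf2, was not called although the sides did not overlap, with 174, 177 and 197 CPM in expressing cells and 111, 131 and 92.6 in silent cells and 0.76 ± 0.23 (SE, adjusted p = 0.109). Uqcrq, Aff4 and Sept8 had log2 fold changes of 0.01, 0.26 and -0.20 and were not called. Zcchc10 went the other way, with 212, 324 and 338 CPM in expressing cells and 339, 447 and 454 in silent cells. Its sides did not overlap, and its log2 fold change of -0.47 ± 0.17 (SE, adjusted p = 0.169) was not called. A small gene on the opposite strand overlaps Il5 (Gm12214), Csf2 (Gm12223) and Rad50 (Gm22275), and the handling of such overlaps in counting is not given in the sources used here.

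Receptors for cytokines were higher in part. Of 28 listed, 17 were tested, 4 were higher (Il4ra, Il2ra, Il10ra and Il2rb) and none lower, with a list median of 0.43. Il4ra, the chain that binds interleukin 4 and takes part in the interleukin 13 receptor, had 172, 206 and 158 CPM in expressing cells and 57.9, 70.1 and 58.9 in silent cells, a log2 fold change of 1.55 ± 0.23 (SE, adjusted p = 0.0054). Il2ra, the high-affinity interleukin 2 receptor chain, had 874, 683 and 389 CPM in expressing cells and 459, 342 and 213 in silent cells. Its sides overlapped between libraries but every library was higher in its expressing cells (log2 fold change 0.98 ± 0.15, SE, adjusted p = 0.00623). Il10ra had means of 149 and 63.1 CPM (log2 fold change 1.28 ± 0.24, SE, adjusted p = 0.0163), and Il2rb, the signalling chain shared by interleukin 2 and 15, of 196 and 96.6 CPM (log2 fold change 1.14 ± 0.27, SE, adjusted p = 0.0459), a call lost in 9 of 21 alternatives. Il17rb, a chain of the interleukin 25 receptor, was not called (-0.19 ± 0.39, SE), and the common chain Il2rg had 0.04.

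Among receptors for neuropeptides, lipids and steroids, 18 of 29 were tested, 3 were higher and none lower, with a list median of 0.50. Ramp3, a receptor activity-modifying protein that with Calcrl forms an adrenomedullin receptor, had 325, 479 and 338 CPM in expressing cells and 93.6, 140.1 and 70.1 in silent cells. The sides were far apart, with a log2 fold change of 1.98 ± 0.21 (SE, adjusted p = 0.000815), and 43.3% of expressing against 12.9% of silent cells held a UMI at 2000 UMIs, with 1.53% of macrophages (unthinned 67.0%, 28.6% and 4.23%). Its partner Calcrl (0.12 ± 0.38, SE) and Ramp1, which with Calcrl forms the receptor of calcitonin gene-related peptide (-0.25 ± 0.27, SE), were not called. Ptger4, a prostaglandin E2 receptor, had means of 116 and 47.6 CPM (log2 fold change 1.35 ± 0.28, SE, adjusted p = 0.0269), and Nr3c1, the glucocorticoid receptor, of 585 and 373 CPM (log2 fold change 0.70 ± 0.15, SE, adjusted p = 0.0316). Nmur1, the neuromedin U receptor, held too few UMIs to test, with means of 7.18 and 7.65 CPM.

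Of 26 co-stimulatory and inhibitory receptor genes, 13 were tested, 2 were higher (Icos and Cd274) and none lower, with a list median of 0.30. Icos, a co-stimulatory receptor that supports ILC2 survival, had 451, 259.9 and 214 CPM in expressing cells and 75.8, 78.8 and 87.0 in silent cells, a log2 fold change of 1.90 ± 0.26 (SE, adjusted p = 0.00411). With every cell thinned and the sides kept, the call for Icos was lost (0.95, adjusted p = 0.0942). Cd274, which encodes PD-L1, had means of 82.5 and 31.9 CPM (log2 fold change 1.40 ± 0.29, SE, adjusted p = 0.0262). Pdcd1, which encodes PD-1, was found in 25 expressing and 5 silent cells and held too few UMIs to be tested. Cd69, a marker of activation and residency, had a log2 fold change of 0.95 that was not called.

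Identity genes outside the rule were partly higher: of 22 listed, 18 were tested, 5 were higher (Lmo4, Icos, Areg, Il2ra and Cxcr6) and none lower, with a list median of 0.49. Lmo4, a LIM-domain adaptor of transcription factor complexes, had 1764, 3503 and 2875 CPM in expressing cells and 704, 1673 and 934 in silent cells. It was higher in the expressing cells of each library, with a log2 fold change of 1.38 ± 0.12 (SE, adjusted p = 0.000603). Cxcr6, a chemokine receptor of tissue lymphocytes, had means of 524 and 263 CPM (log2 fold change 1.03 ± 0.23, SE, adjusted p = 0.0381). Id2, the inhibitor protein that all innate lymphoid cells need, had a log2 fold change of 0.02, and Arg1, the arginine-degrading enzyme of ILC2, 0.30 ± 0.23 (SE), neither called.

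Of 37 lineage transcription factors, 23 were tested, 5 were higher (Nfil3, Batf, Ikzf3, Bhlhe40 and Ets1) and none lower, with a list median of 0.25. Bhlhe40, a repressor that supports cytokine production in lymphocytes, had 587, 413 and 427 CPM in expressing cells and 321, 241 and 146 in silent cells (log2 fold change 1.09 ± 0.20, SE, adjusted p = 0.0163). Batf, an AP-1 family partner, had means of 106 and 41.1 CPM (log2 fold change 1.44 ± 0.30, SE, adjusted p = 0.0247), and Ikzf3 of 145 and 57.4 CPM (log2 fold change 1.33 ± 0.28, SE, adjusted p = 0.0255). The sides overlapped for Batf but not for Ikzf3. The difference in Ets1 was small, with means of 1055 and 711 CPM (log2 fold change 0.61 ± 0.12, SE, adjusted p = 0.0247). Pparg, a lipid-sensing nuclear receptor of ILC2, had 0.19 ± 0.32 (SE) and was not called. Zeb2, a repressor with a UMI in 98.0% of macrophages, had 0.25 ± 0.46 (SE) and was not called, but a single cell held 74.5% of its silent UMIs. Without the silent cell rich in myeloid RNA, an alternative chosen after seeing the data, Zeb2 had 1.99 and was called (adjusted p = 0.0126). Tcf7 and Klf2 held too few UMIs to be tested.

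Immediate early genes, which are transcribed within minutes of a stimulus, split within the list. Of 36, 32 were tested, 9 were higher and none lower, with a list median of 0.49. Nr4a3, an orphan nuclear receptor induced by calcium and cyclic AMP signals, had 2764, 974 and 1205 CPM in expressing cells and 544, 337 and 154 in silent cells, with replicate 1 the highest on both sides and a log2 fold change of 2.31 ± 0.23 (SE, adjusted p = 0.000708). Thinned to 2000 UMIs, 64.4% of expressing and 19.4% of silent cells held Nr4a3, with 19.2% of macrophages (unthinned 84.8%, 39.1% and 41.2%). Fosl2, an AP-1 subunit, had 1289, 920.1 and 884 CPM in expressing cells and 450.1, 416 and 213 in silent cells (log2 fold change 1.60 ± 0.19, SE, adjusted p = 0.00129). Rgs2, a brake on G protein signalling, had 2189, 1126 and 996 CPM in expressing cells and 570.4, 490.5 and 376 in silent cells (log2 fold change 1.56 ± 0.16, SE, adjusted p = 0.000708), and Rgs1, a further such brake, means of 492 and 149.8 CPM (log2 fold change 1.75 ± 0.24, SE, adjusted p = 0.00411). Nr4a1, Dusp5, Zfp36l1, Klf4 and Spry2 were the other members called higher, and 23 of the 32 tested were above 0. Fos, Jun and Egr1 were not called and had log2 fold changes of -0.16, -0.64 and -0.38. Whether Fosl2 and Nr4a3 differed from Fos and Jun was not tested.

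NF-kB genes and their feedback inhibitors were higher in 5 of 22 tested members (24 listed), and none was lower, with a list median of 0.66. Nfkb1, which encodes the p50 precursor, had 2244, 1605 and 1278 CPM in expressing cells and 798, 810.2 and 463 in silent cells (log2 fold change 1.36 ± 0.14, SE, adjusted p = 0.000708). The inhibitor Nfkbia had 3108, 3323 and 2410 CPM in expressing cells and 1471, 1787 and 1262 in silent cells, a log2 fold change of 1.01 ± 0.09 (SE, adjusted p = 0.000603). Gadd45b, a stress-response gene that NF-kB induces, had means of 3330 and 1497 CPM (log2 fold change 1.24 ± 0.16, SE, adjusted p = 0.00311), and Rel of 515 and 207 CPM (log2 fold change 1.40 ± 0.24, SE, adjusted p = 0.0107). Rela, Relb and Nfkb2 were not called, with 0.48, 0.41 and -0.22. Of 17 genes of cytokine signalling feedback and survival, 15 were tested, 2 were higher and none lower, with a list median of 0.35. These were the survival kinase Pim1, with means of 1017 and 606 CPM (log2 fold change 0.80 ± 0.13, SE, adjusted p = 0.00824), and the receptor kinase Jak2, with 225 and 104 CPM (log2 fold change 1.23 ± 0.25, SE, adjusted p = 0.0233). The sides overlapped for both genes, although each library was higher in its expressing cells. Of the calcium and NFAT genes 17 of 22 were tested, with a list median of -0.04, and the calcium channel gene Orai1 was the only gene called (log2 fold change 1.25 ± 0.26, SE, adjusted p = 0.0269). That is 5.88% of those tested, near the 3.94% of all genes tested that were higher. Nfatc1, Nfatc2 and Nfatc3 had 0.56, -0.23 and -0.24.

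Lists of metabolism and protein synthesis held 0 to 2 higher genes each, to be read against the 3.94% of all genes tested that were higher. Glycolysis and hypoxia had 1 higher gene of 15 tested (22 listed), the oxygen-regulated factor Hif1a with means of 179 and 75.2 CPM (log2 fold change 1.25 ± 0.24, SE, adjusted p = 0.0202), and a list median of 0.31. Amino acid and polyamine metabolism had 2 of 11 (20 listed) and a list median of 0.30. These were Odc1, the first enzyme of polyamine synthesis, with 318, 252 and 299 CPM in expressing cells and 174, 74.5 and 33.7 in silent cells (log2 fold change 1.81 ± 0.36, SE, adjusted p = 0.0217), and its inhibitor Oaz1, with means of 1286 and 906 CPM (log2 fold change 0.53 ± 0.12, SE, adjusted p = 0.0452), a call lost in 10 of 21 alternatives. The sides of Oaz1 overlapped. Protein secretion and the unfolded protein response had 2 of 22 (28 listed), the stress sensor Ern1 (log2 fold change 1.15 ± 0.26, SE, adjusted p = 0.0381) and the chaperone Calr (log2 fold change 0.78 ± 0.19, SE, adjusted p = 0.048), with a list median of -0.02, and both calls were lost in many alternatives (9 of 20 and 11 of 21). None of 17 tested genes of ribosome biogenesis (22 listed) was called, nor any of 22 respiratory chain or 22 cytosolic ribosomal protein genes, with list medians of 0.33, -0.09 and 0.01. Log2 fold changes of the ribosomal protein genes ran from -0.05 to 0.21. Of 24 proliferation genes, 7 were tested and the histone variant gene H2afz was higher (log2 fold change 1.02 ± 0.17, SE, adjusted p = 0.00882), with a list median of 0.49, while Mki67 and Top2a held too few UMIs to be tested. Migration genes had 1 of 16 (28 listed, Cxcr6) with a list median of 0.08, and interferon genes 1 of 3 (22 listed) with 0.27. That interferon gene was Isg15, with 47.7, 235 and 218 CPM in expressing cells and 26.7, 26.3 and 28.0 in silent cells (log2 fold change 2.61 ± 0.39, SE, adjusted p = 0.00545).

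**Figure D4:**
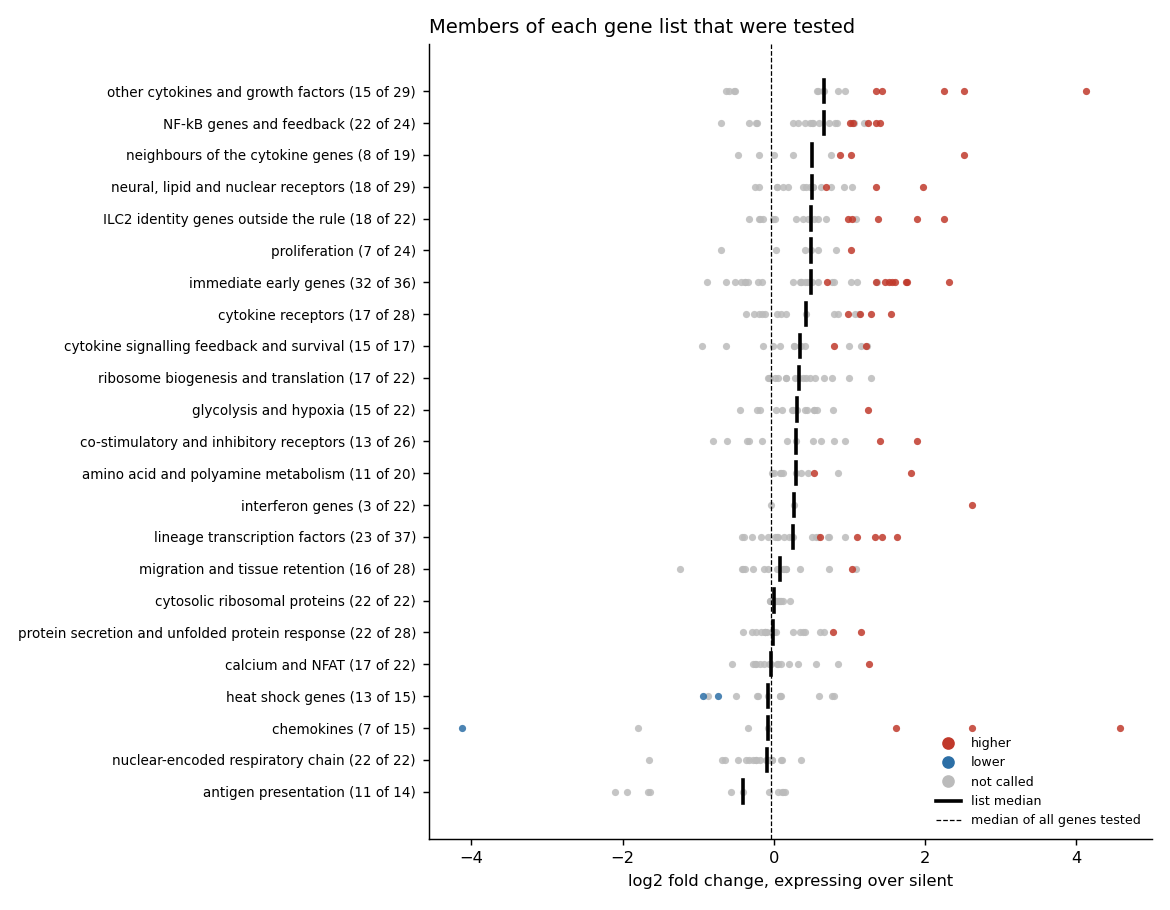
Log2 fold changes (x axis, expressing over silent) of the tested members of 23 gene lists, 1 row per list with the number tested of the number listed in brackets. Red members were called higher, blue lower and grey not called, with the list median as a black bar and the median of all genes tested, -0.04, as a dashed line; the lists of other cytokines and NF-kB genes have the medians farthest to the right, 0.67 and 0.66.

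Among called genes with a mean of at least 50 CPM and the same direction in 3 of 3 libraries, the 12 with the highest log2 fold changes included Ell2, a transcription elongation factor with 427, 186 and 141 CPM in expressing cells and 71.3, 21.9 and 36.5 in silent cells (log2 fold change 2.53 ± 0.27, SE, adjusted p = 0.000809), and Ets2, an ETS family factor with 184, 179 and 171 CPM in expressing cells and 31.2, 39.4 and 36.5 in silent cells (log2 fold change 2.35 ± 0.26, SE, adjusted p = 0.000999). Dgat1, a triglyceride synthesis enzyme, had 356, 159 and 59.8 CPM in expressing cells and 22.3, 78.8 and 11.2 in silent cells (log2 fold change 2.30 ± 0.47, SE, adjusted p = 0.0233). Its sides overlapped, and its call was lost in 2 of 19 alternatives. Fam110a had means of 89.5 and 19.8 CPM (log2 fold change 2.20 ± 0.33, SE, adjusted p = 0.0054). For the long noncoding RNA Gm26870 the means were 635 and 131 CPM (log2 fold change 2.36 ± 0.50, SE, adjusted p = 0.0269), but its sides overlapped, a single cell held 37.1% of the expressing UMIs, and it overlaps 9 genes on the other strand, so its value is uncertain.

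The 11 genes lower in expressing cells were few and mixed: Ccl5, Txnip, Hspa1a, Hspa1b, Actb, Hba-a1, Lpcat2, Tsn, Olfr1259, Rhob and Pkp3. Txnip, which restrains glucose uptake and binds thioredoxin, had 196, 132 and 273 CPM in expressing cells and 566, 372 and 488 in silent cells, a log2 fold change of -1.24 ± 0.20 (SE, adjusted p = 0.00882), and missed the threshold without replicate 2 (-1.12, adjusted p = 0.0666). The inducible chaperone genes Hspa1a and Hspa1b are near-identical copies whose reads the counting could divide. Hspa1a had 945, 2119 and 5986 CPM in expressing cells and 3124, 4318 and 7001 in silent cells (log2 fold change -0.93 ± 0.22, SE, adjusted p = 0.0422) and Hspa1b 2277, 2088 and 7016 CPM in expressing cells and 5040, 4301 and 7929 in silent cells (log2 fold change -0.74 ± 0.16, SE, adjusted p = 0.0309), so libraries differed more than sides, although each library was lower in its expressing cells. They were the 2 genes called of 13 tested heat shock genes (15 listed), with a list median of -0.07, where 0.308% of all genes tested were lower. Actb, cytoplasmic actin, differed little (log2 fold change -0.36 ± 0.07, SE, adjusted p = 0.0168), and its call was lost in 9 of 21 alternatives. Hba-a1, an alpha globin gene of red cells, had means of 25.4 and 87.7 CPM (log2 fold change -1.65 ± 0.33, SE, adjusted p = 0.0219).

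Ccl5, a chemokine of natural killer cells and cytotoxic T cells, had 11.9, 8.25 and 0 CPM in expressing cells and 120.3, 210.2 and 70.1 in silent cells, a log2 fold change of -4.13 ± 0.42 (SE, adjusted p = 0.000708). The difference rests on few cells, since 6 of 146 expressing and 6 of 121 silent cells held any Ccl5 UMI, and 36.0% of the silent UMIs came from a single cell. Markers of natural killer cells or ILC1 were higher in silent cells in replicates 1 and 2 but not in replicate 3. Summed over 6 markers they were 0, 0 and 4.27 CPM in expressing and 35.6, 43.8 and 0 in silent profiles, with Eomes and Gzma at 0 on both sides. These sums rest on few UMIs: Tbx21 held 5 silent UMIs, all in replicate 1, and Ncr1 held 5, all in replicate 2. Prf1 held 3, 1 and 0 silent UMIs in replicates 1, 2 and 3 and no expressing UMI. The silent profile of replicate 3 held none of the 6 markers and 70.1 CPM of Ccl5. Outside these 6 markers, the chemokine gene Xcl1 held 14, 14 and 1 silent UMIs in replicates 1, 2 and 3 and no expressing UMI. Ifng held 5 silent UMIs, all in replicate 2, and no expressing UMI. Neither Xcl1 nor Ifng held enough UMIs to be tested. The part of natural killer cells or ILC1 in the result was not tested. Ccl4, a related chemokine, had a log2 fold change of -1.80 that was not called.

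Antigen presentation genes were not called in any of 11 tested members (14 listed), with a list median of -0.40. The lowest were the class II genes H2-Ab1, H2-Aa, H2-Eb1 and Cd74, with -2.10, -1.95, -1.66 and -1.63. In the silent profile of replicate 1, which holds the cell rich in myeloid RNA, 6 dendritic cell markers summed to 2745 CPM against 61.7 to 145 in the other silent and 115 to 212 in the expressing profiles, with Xcr1, Clec9a and Flt3 at 0 throughout. The summed macrophage markers were 1065 there against 93.1 to 184 elsewhere.

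Levels were also followed over all ILC2 along the number of cytokine UMIs, as a description without a test, because the bin of 0 is the silent side and the bins of 3 to 9 and of 10 or more UMIs make up the expressing side. They held 26, 15 and 26 cells in replicate 1, 38, 17 and 53 in replicate 2, and 57, 15 and 20 in replicate 3. Nr4a3 had means of 345, 641 and 2133 CPM in these bins, and 486 in the cells with 1 or 2 UMIs. Furin had 634, 1042, 1277 and 1678 from the lowest to the highest bin, Lmo4 1104, 1378, 2206 and 3049, and Txnip 475, 338, 303 and 160. The means of these 4 genes followed the order of the bins, and so did the values of each library for Nr4a3 and Lmo4, but not those of all libraries for Furin and Txnip. Calca and Ccl1 did not: their means were 27.9, 160, 91.0 and 645, and 17.4, 119, 62.1 and 542, with most of the level in cells of 10 or more cytokine UMIs. Medians of UMIs per cell were 8237, 8478, 8495 and 9810 over these bins in replicate 1, and 5850, 6060.5, 5749 and 7292 in replicate 2, highest in the top bin. In replicate 3 they were 6185, 5530, 6638 and 6474.5, and the top bin was not the highest.

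**Figure D5:**
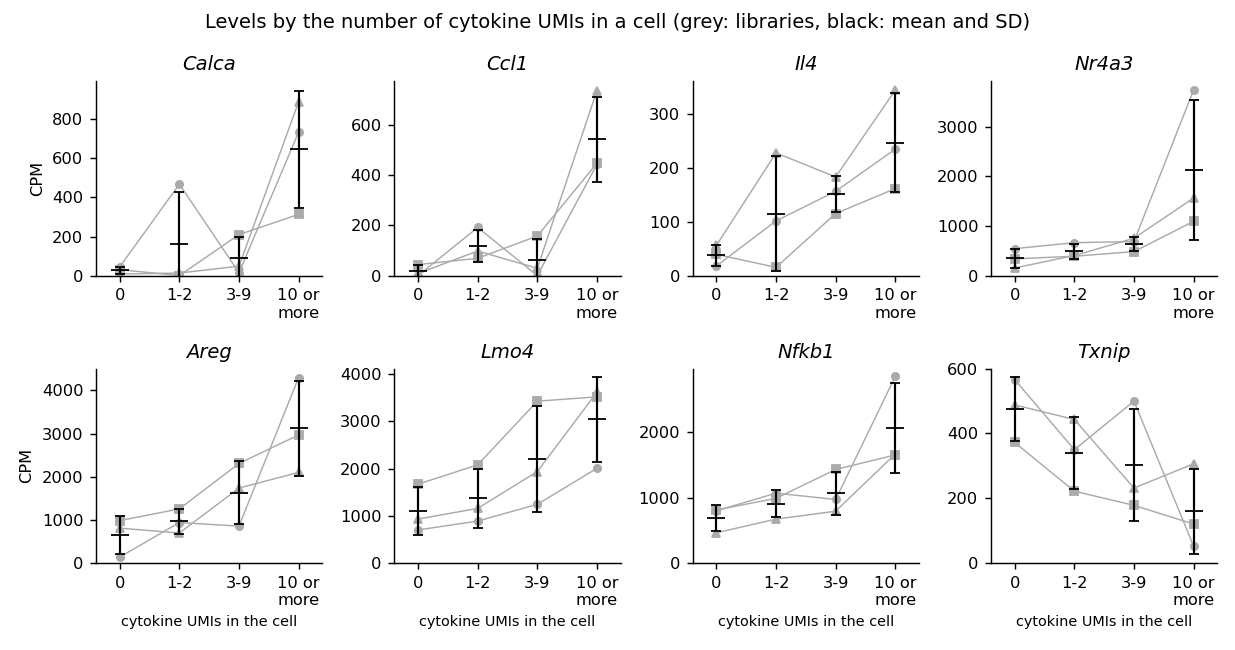
CPM (y axes from 0) of 8 genes in ILC2 binned by their number of cytokine UMIs (x axis), with grey lines for the 3 libraries and black bars for the mean and SD. Nr4a3 reaches 2133 and Calca 645 on average in cells of 10 or more cytokine UMIs, and Txnip is lowest there at 160.

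The sides were also drawn from each cytokine gene alone, with 3 or more UMIs of that gene against the same silent cells, so the 3 sets share both their controls and many cells. From Il5 alone (20, 34 and 15 cells) Calca had a log2 fold change of 4.80, from Il13 alone (16, 33 and 13 cells) 5.08 and from Csf2 alone (28, 52 and 22 cells) 3.29. Ccl1 had 5.16, 5.20 and 4.54, Il4 2.58, 2.68 and 2.31, and Nr4a3 2.66, 2.79 and 2.31. For Areg the values were 2.76, 2.13 and 2.04. Each of these 5 genes was called in each of the 3 sets.

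The comparison was repeated with the depth per cell matched in 3 ways. First, cells of the sides were paired within a library on their UMIs without the cytokine UMIs, at most 0.25 apart on the log2 scale. With these 24, 35 and 35 pairs, 103 genes were higher and 8 lower, 97 and 4 of them shared with the counts above. Calca then had a log2 fold change of 3.65, Ccl1 4.07, Il4 2.65, Ramp3 2.16 and Nr4a3 2.36. Thinned to 2000 UMIs with the sides taken again, 129 of the 152 called genes could be tested and 77 of them were called, and Calca had 2.74, Ccl1 2.87 and Il4 2.09. With the sides kept, 109 could be tested and 63 were called, and the values were 4.26, 3.92 and 2.19. All called genes that could be tested kept their direction in these 3 fits. Over the 21 alternatives the lowest values were 2.42 for Calca, 2.66 for Ccl1 and 1.81 for Il4. Of the genes named here, the 16 genes Calca, Ccl1, Ccl5, Cxcl10, Ell2, Ets2, Fosl2, Furin, Il4, Il4ra, Isg15, Nfkb1, Nr4a3, Ramp3, Rgs1 and Rgs2 were called in every alternative in which they were tested. Ccl5 had a result in only 14 of the 21 alternatives, Isg15 in 17 and Cxcl10 in 18, while the rest of these genes had one in all 21. Another 41 named genes lost their call in at least 1 alternative. The 5 genes Calr, Hspa4, Il2, Lpcat2 and Oaz1 lost it in 10 or more, and the 16 genes Actb, Cxcr6, Ern1, Ets1, Gm26870, H2afz, Hif1a, Hspa1a, Hspa1b, Ikzf3, Il2rb, Nr3c1, Orai1, Ptger4, Rad50 and Tsn in 5 to 9.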

How the data were processed

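Each of the 3 libraries, made with a 3′ droplet kit per the labels' protocols, came as the authors' raw UMI counts of 31053 genes in every cell barcode. The submitters' processing notes name Cell Ranger 3.1 and the build mm10, while the software version per the file headers is 3.0.0 or 3.1.0. Which annotation release was counted is not stated there.

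The rule for ILC2 and for the 2 sides was applied to these counts, and the members, the 23 gene lists and the named genes were chosen with earlier results of these data known. Named genes were the 12 highest and 12 lowest called log2 fold changes with a mean of at least 50 CPM and the same direction in 3 of 3 libraries, up to 4 called members a list on each side by p, and 23 fixed genes. Genes named outside this rule were chosen after their values were seen.

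Raw counts were summed per library and side. Levels in CPM are the UMIs of a gene scaled to a total of 1000000 over all genes of a profile. Sums were tested in edgeR 4.0.16 (R 4.3.3) with filterByExpr, TMM scaling, library and side as terms, glmQLFit and glmQLFTest, two-sided. The 15 genes of the rule and 13 mitochondrial genes stayed in the library size and out of the test. Each library gives both sides, so the block follows from the design. The SE of a log2 fold change was its size over the square root of the F statistic. On data simulated for this comparison with 3547 genes tested, 84% of genes changed 4-fold and 47% of those changed 2-fold were called. Of 136 calls there, 5 were of unchanged genes. The simulated libraries differed only in depth and shared a single dispersion (relative spread) over all genes, unlike the real profiles, so these shares may be too high. Depth was 6777422, 13336484 and 11017170 UMIs per library. Doublets were scored with scrublet in scanpy 1.11.5 and not removed in the main result, and 1 expressing cell was among the highest scores. In all, 21 alternatives were fitted, including DESeq2 1.42.0, other scalings, filters, thresholds and depths. Promoter windows came from RefSeq, and gene spans from GENCODE on GRCm38, the same assembly as mm10.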

Additional observations from a re-analysis of the deposited data

Results flagged for a closer look

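Outside the rule, 116 barcodes held 3 or more UMIs of Il5, Il13 and Csf2. Of these, 31 failed only the limit of 1 UMI of Cd3d, Cd3e and Cd3g, 12 in replicate 1, 15 in replicate 2 and 4 in replicate 3. These 31 barcodes did not enter the main comparison. Those without a Trac UMI entered only the alternative fit with a Trac limit given below. No control samples exist for the 31, so they stand out only against a count of 0. Their 326638 UMIs held 164 of Cd3g, 25 of Cd3e, 13 of Cd3d and none of Cd4, and Trac had 5 UMIs in 2 cells of replicate 1. They also held 1531 UMIs of Areg, 515 of Gata3, 364 of Il1rl1 and 76 of Il4. A further 32 barcodes without cytokine UMIs failed only the Cd3 limit, and 11 of them had a Trac UMI. With a limit on Trac in place of Cd3, 148 genes were higher and 6 lower, against 141 and 11.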

How the results depend on the processing

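All 152 called genes kept their direction in each of the 21 alternatives wherever they were tested, while the counts moved, and the causes of these moves were not tested. Against 141 genes higher and 11 lower, DESeq2 gave 85 and 3, no filter on low counts 315 and 66 of 11384 tested, and no replicate block 65 and 4, all of them among the 152, so the pairing by library more than doubled the calls. Without 1 library the counts ran from 82 to 205 higher and from 5 to 31 lower. Thinning to 2000 UMIs gave 86 and 32 with the sides taken again and 64 and 19 with the sides kept, from fewer genes tested, and 72.9% and 77.1% of calls were then higher against 92.8%. Taking cells from 10 cytokine UMIs gave 39 lower genes, counting cells of 1 or 2 UMIs as silent 215 higher and 21 lower, Il5 alone 27 lower and Il13 alone 22 lower. Of 3 alternatives chosen after seeing the data, leaving out the myeloid-rich silent cell gave 222 and 31, a Trac limit in place of the Cd3 limit 6 lower, and a stricter limit without any Cd3, Trac, C1q or Cpa3 UMI 6 lower. The planned stricter limit that also bars Trbc1 and Trbc2 left 1, 4 and 0 expressing and no silent cells and could not be fitted. The share of expressing cells was 30.5% after thinning and 37.2% to 49.2% without 1 library. The depth ratio ran from 0.13 to 0.19 without 1 library.

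Genes that were not called changed sign in some fits. Without 1 library, Il6 ran from -1.50 to 0.71, Arg1 from -0.047 to 0.67, Il17rb from -0.93 to 0.12, Calcrl from -0.31 to 0.75, Ramp1 from -0.61 to 0.14, Pparg from -0.13 to 0.63 and Zeb2 from -0.20 to 1.51. Calcrl had -0.013 with no replicate block and -0.0058 with cells of 1 or 2 UMIs as silent, where Il17rb had 0.19. Arg1 had -0.021 and -0.049 from Il5 and Il13 alone and -0.044 under the stricter limit, Il17rb 0.13 from Il13 alone and 0.055 with the Trac limit, Zeb2 -0.0048 without doublet scores, and Il6 0.72 without the myeloid-rich cell and 0.70 with the Trac limit. Over the named genes, 1110 values stayed on their side of the threshold, 206 lost a call, 2 gained one (Irf1 without the filter, at 0.89, and Zeb2 without the myeloid-rich cell, at 1.99) and these 19 changed sign. With profiles of at most 484749 UMIs, most genes under about 34 CPM could not be tested.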
